A study of Mus musculus with 4 samples.

Results

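The unfolded protein response genes studied here are 10 genes listed by name: the chaperones and folding factors Hspa5, Hyou1, Dnajb9, Sdf2l1, Pdia4 and Manf, the degradation factor Herpud1, and the transcription factors Xbp1, Atf4 and Ddit3. A gene was measured where a feature of the array carried its symbol alone, which held for 8 of the 10, out of 30142 genes in all. Pdia4 and Manf shared their features with other genes and have no value here. All 8 measured genes lay above the floor on low signal, a mean log2 signal of 5.82, which left 18084 genes. The rule that picked the members used no measured value, but they were chosen with earlier results of these data known.

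The samples were 4 pools of lung RNA from male C57BL mice, an inbred strain, with 1 pool on 1 array for each group. The 2-week groups were mainstream cigarette smoke (5 mice, 12 weeks old) and clean air (5 mice, 12 weeks old). The 4-week groups were smoke (4 mice, 14 weeks old) and clean air (5 mice, 14 weeks old). All were begun at 10 weeks of age and given for 1 h a day, from 10 to 11 AM, on 5 days a week. Pooling averages the animals, so the spread between mice cannot be seen, and a difference between 2 pools is given without a p-value. Median signals of the 4 arrays lay between 58.8 and 61.7, and precision is limited by having 4 arrays. The deposited values are linear, and log2 of them is given as the log2 signal. Between 541 and 581 features an array exceeded 65535, the highest value of a 16-bit scan, while the natural logarithm of the highest value was 13.6. Which base the authors used to return to a linear scale is not stated. With base e, each log2 difference below would be 0.69 times as large, with the same sign, and a 1.5-fold difference would be one of 1.32-fold. All folds, summed linear signals and shares of a sum below are on the deposited scale and would change too.

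Proteins that enter the secretory pathway fold in the endoplasmic reticulum (ER), and an excess of unfolded protein there is sensed by IRE1, PERK and ATF6. IRE1 splices the Xbp1 transcript, PERK phosphorylates the initiation factor eIF2 so that Atf4 is translated, and ATF6 is cut to release a transcription factor. Together they raise ER chaperones and degradation factors, and under lasting stress the death-linked factor CHOP, encoded by Ddit3. In the lung, surfactant-making alveolar type 2 cells, club cells and plasma cells carry a large secretory load. A gene-level signal holds total transcript and does not separate spliced from unspliced Xbp1.

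RefSeq promoters, 250 bases before to 50 after a gene's start on GRCm38.p6, matched 8 of the 10 genes by symbol, all but Hyou1 and Manf. The ER stress element (ERSE: CCAAT, then 9 bases of any kind, then CCACG), bound by NF-Y together with ATF6, was found on either strand in 1 of the 8, that of Hspa5, and in 0.119% of all 32851 promoters. Its shorter form ERSE-II (ATTGG, 1 base of any kind, CCACG) was found in that of Herpud1 and in 0.0365% of all promoters. The sequence CCAAT, or ATTGG on the other strand, which lies inside both elements, was found in 7 of the 8 and in 37.4% of all promoters. The UPR element TGACGTGG was found in 0 of the 8 and in 0.676% of all promoters, and the C/EBP-ATF element to which ATF4 binds (TGATG, 1 base of any kind, AA) in that of Herpud1 and in 3.97% of all. Such a match is a description of the letters and not a site shown to be bound.

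The 120 bases before the start are shown for Hspa5 (chr2:34771970-34772089, plus strand) and Herpud1 (chr8:94386309-94386428, plus strand), which hold these elements, for Xbp1 (chr11:5520521-5520640, plus strand) and Dnajb9 (chr12:44210069-44210188, minus strand), whose smoke differences at the 2 durations lay furthest apart, and for Atf4 (chr15:80255064-80255183, plus strand), which was lower with smoke at both. Capitals mark the ERSE, ERSE-II, C/EBP-ATF element and CCAAT on either strand.
Hspa5: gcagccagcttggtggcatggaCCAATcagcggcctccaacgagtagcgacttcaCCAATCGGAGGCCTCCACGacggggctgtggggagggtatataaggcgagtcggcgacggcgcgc
Herpud1: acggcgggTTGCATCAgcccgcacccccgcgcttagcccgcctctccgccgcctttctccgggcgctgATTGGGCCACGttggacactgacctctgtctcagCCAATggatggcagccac
Xbp1: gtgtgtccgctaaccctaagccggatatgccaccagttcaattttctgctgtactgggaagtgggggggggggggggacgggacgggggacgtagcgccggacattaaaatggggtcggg
Dnajb9: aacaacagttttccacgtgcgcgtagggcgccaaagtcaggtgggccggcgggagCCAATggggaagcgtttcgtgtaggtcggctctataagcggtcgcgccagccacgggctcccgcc
Atf4: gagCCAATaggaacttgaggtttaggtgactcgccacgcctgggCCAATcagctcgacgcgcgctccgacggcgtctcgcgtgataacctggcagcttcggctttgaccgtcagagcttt

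Among the ER chaperones, Hspa5 encodes BiP, the HSP70 chaperone of the ER lumen that also holds the sensors inactive. Its log2 signal was 13.95 in the smoke pool against 14.21 in the control pool at 2 weeks, and 14.20 in the smoke pool against 14.14 in the control pool at 4 weeks. The 2-week smoke pool thus stood lowest and the other 3 pools lay within 0.07 of each other. Hyou1, a large HSP70 relative that acts with BiP as a nucleotide exchange factor, was at 11.10 with smoke against 11.16 with clean air at 2 weeks, and at 11.35 with smoke against 11.22 with clean air at 4 weeks. Here the 4-week smoke pool was the highest and the 2-week smoke pool the lowest. Dnajb9, which encodes the BiP cochaperone ERdj4, was at 13.13 against 13.27 (smoke against control) at 2 weeks and at 13.38 against 13.11 at 4 weeks. Its 4-week smoke pool was the highest, and the 2-week smoke and 4-week control pools were almost level. Sdf2l1, an ER luminal protein that works with ERdj3 and BiP, had 9.57 in smoke and 9.40 in control lungs at 2 weeks, and 9.87 in smoke and 9.58 in control lungs at 4 weeks. It was the only one of the 8 that was higher with smoke at both durations.

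Herpud1 encodes an ER membrane protein of the degradation complex that returns misfolded proteins to the cytosol. Its log2 signal was 12.94 in the smoke pool against 13.03 in the control pool at 2 weeks, and 13.59 in the smoke pool against 13.43 in the control pool at 4 weeks. Both 4-week pools lay above both 2-week pools, by 0.65 between the smoke pools and by 0.40 between the control pools, larger differences than those between smoke and clean air. The transcription factor Xbp1, which drives chaperone, degradation and secretory genes once spliced, was at 13.11 with smoke against 13.30 with clean air at 2 weeks and at 13.50 with smoke against 13.24 with clean air at 4 weeks. The smoke pools were thus its lowest and its highest. Atf4, the main effector downstream of PERK and of the other eIF2 kinases, had 8.95 in smoke and 9.29 in control lungs at 2 weeks, and 9.21 in smoke and 9.48 in control lungs at 4 weeks. Both smoke pools of Atf4 lay below both control pools. Ddit3, which encodes CHOP, was at 9.45 with smoke against 9.60 with clean air at 2 weeks and at 9.79 with smoke against 9.66 with clean air at 4 weeks, and its smoke pools were again the lowest and the highest. A second, dimmer feature of Ddit3 gave smoke minus control differences of -0.33 at 2 weeks and 0.26 at 4 weeks, larger than the -0.15 and 0.13 of the feature used and of the same signs.

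**Figure D1:**
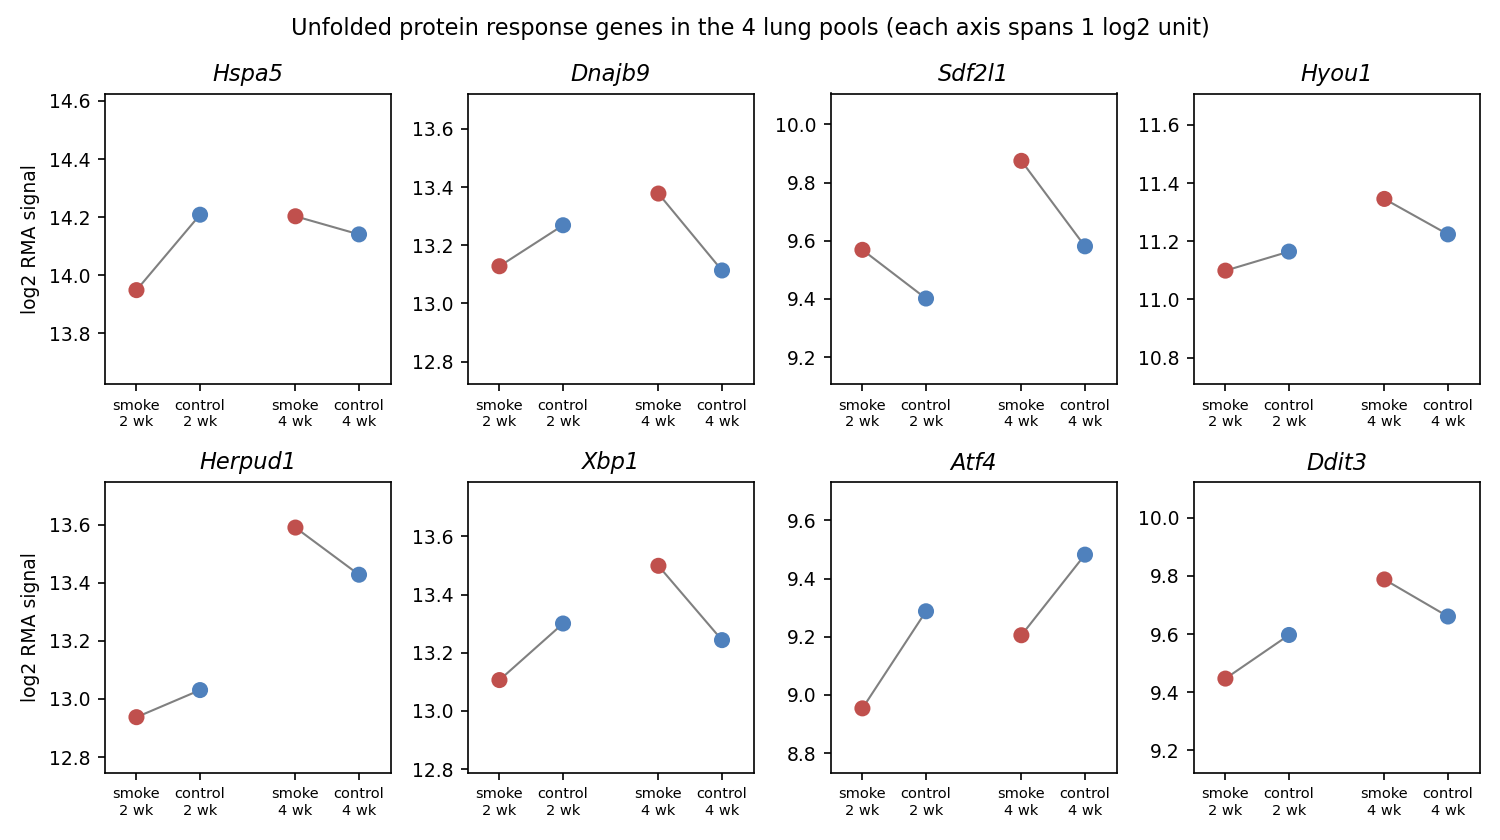
Log2 RMA signal (vertical axes, 1 log2 unit each) of the 8 measured genes in the smoke (red) and control (blue) pools of 2 and 4 weeks, 1 array a point with no error bar; grey lines join the pools of 1 duration. The line slopes up to the control pool at 2 weeks in 7 genes and down to it at 4 weeks in 7 genes, and only Atf4 is higher in the control pool at both.

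After 2 weeks of smoke, 7 of the 8 genes were below the matched control pool. The log2 differences ran from -0.33 (Atf4) and -0.26 (Hspa5, 1.20-fold lower) to 0.17 (Sdf2l1), with a median of -0.15, against 0.01 over all 18084 genes. In the same comparison 48.6% of all genes were lower, as were 43.5% of the 12583 protein-coding genes and 50% of the 6994 genes whose mean signal was at least that of Atf4, the dimmest member. None of the 8 differed by 1.5-fold, while 3.04% of all genes did (1.82% higher and 1.22% lower). A difference at least as large as that of Hspa5 was found in 17.6% of the 6994 brighter genes, and one as large as that of Atf4 in 11.1%. In bulk lung RNA, fewer cells of a type and less RNA per cell cannot be told apart.

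After 4 weeks of smoke, 7 of the 8 were above the matched control pool. Sdf2l1 was 0.29 higher, Dnajb9 0.26, Xbp1 0.26, Herpud1 0.16, Ddit3 0.13, Hyou1 0.12 and Hspa5 0.06, while Atf4 stood at -0.28. The value of Hspa5 did not keep its sign under quantile normalization, where it was -0.01. The median was 0.14, against -0.02 over all genes, of which 46.5% were higher. Among protein-coding genes 38.9% were higher, and among the 6994 brighter genes 37.9%. None of the 8 differed by 1.5-fold, against 4.04% of all genes (2.53% higher and 1.5% lower). A difference at least as large as that of Sdf2l1 was found in 20.1% of the 6994 brighter genes.

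**Figure D2:**
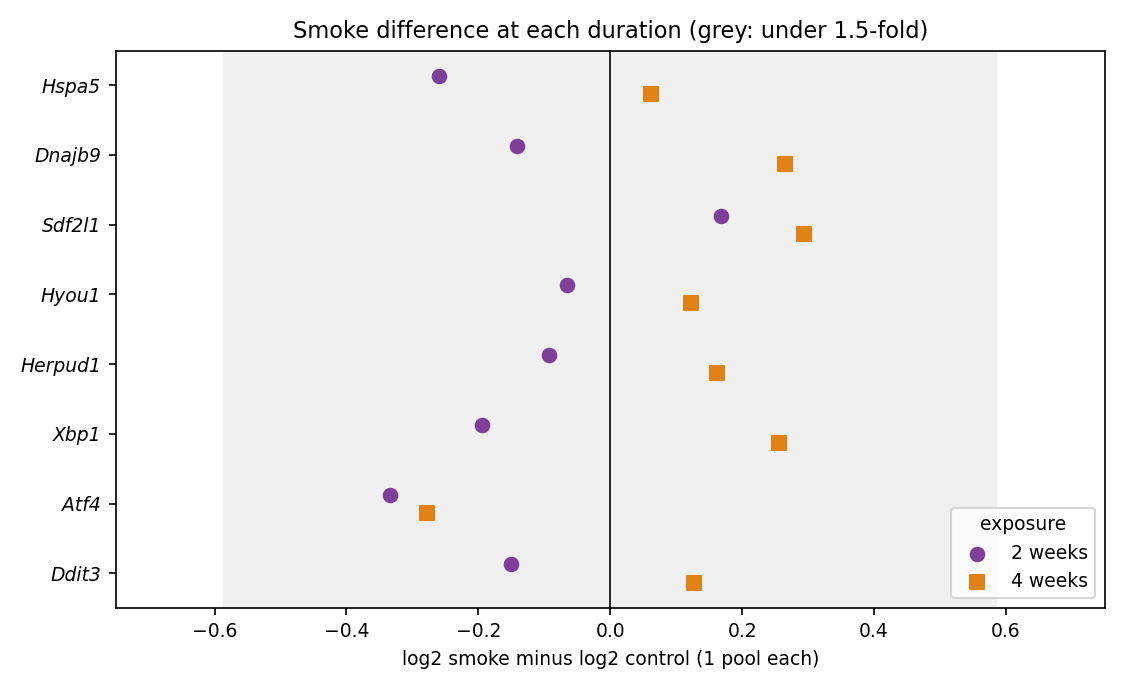
Log2 smoke minus log2 control (horizontal axis) for each gene at 2 weeks (purple circles) and 4 weeks (orange squares), 1 pool against 1 pool with no error bar; the grey band holds differences under 1.5-fold. Every point lies inside the band, and in all 8 genes the 4-week point lies to the right of the 2-week point, by 0.06 (Atf4) to 0.45 (Xbp1).

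Hspa5, Hyou1, Dnajb9, Herpud1, Xbp1 and Ddit3, 6 of the 8, were lower with smoke at 2 weeks and higher at 4 weeks, a pattern found in 19.3% of all genes, in 11% of protein-coding genes and in 13.6% of the 6994 brighter genes. These 2 differences share no array. The smoke difference was more positive at 4 than at 2 weeks in 8 of the 8 genes, by a median of 0.27, against -0.04 over all genes, of which 43.2% were more positive at 4 weeks (32.8% of protein-coding and 34.2% of the brighter genes). This gap between durations was 0.45 for Xbp1, 0.41 for Dnajb9, 0.32 for Hspa5, 0.28 for Ddit3, 0.26 for Herpud1, 0.19 for Hyou1, 0.13 for Sdf2l1 and 0.06 for Atf4. A gap at least as large as that of Xbp1 was found in 7.29% of the brighter genes, and none of the 8 reached 1.5-fold, against 5.16% of all genes. With 1 pool a group this gap could not be tested, since no residual degree of freedom is left.

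**Figure D3:**
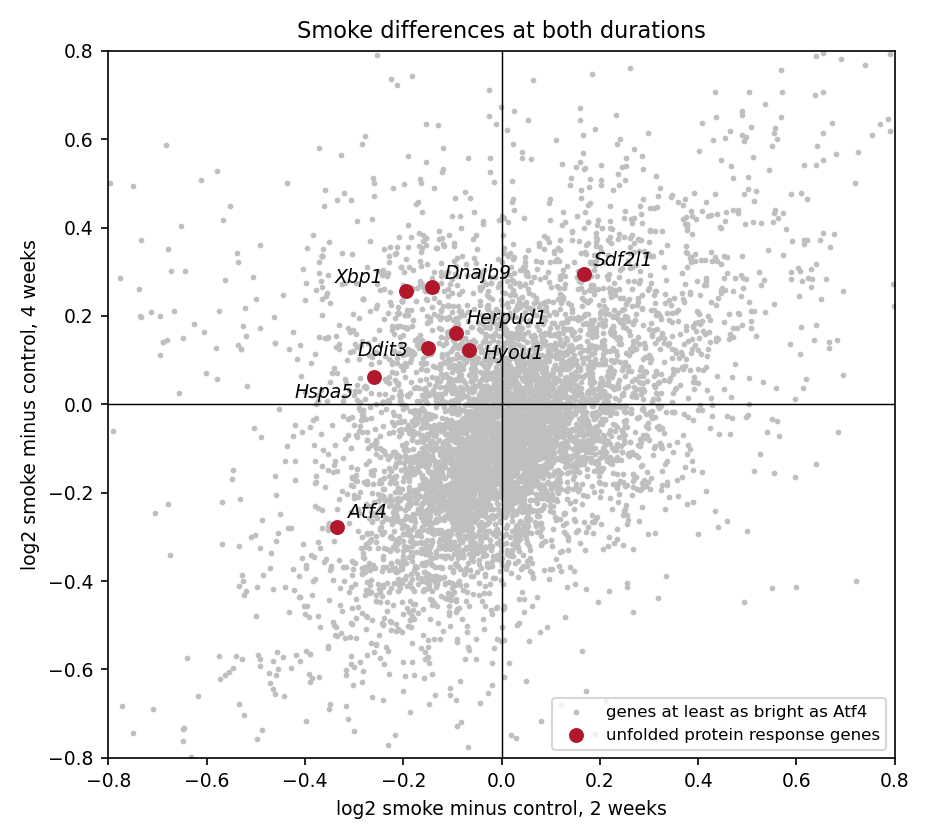
Log2 smoke minus control at 2 weeks (horizontal axis) and at 4 weeks (vertical axis) for the 8 genes (red) and for genes whose mean signal is at least that of Atf4 (grey, those within 0.8 on both axes), each point from 4 arrays. The upper left part, lower at 2 weeks and higher at 4 weeks, holds 6 of the 8 genes and 13.6% of the 6994 genes; Sdf2l1 lies upper right and Atf4 lower left.

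Set directly against each other, the 4-week smoke pool was higher than the 2-week smoke pool in 8 of the 8 genes, by 0.25 to 0.65 with a median of 0.28, against 50.4% of all genes, 46.9% of protein-coding genes and 41.7% of the brighter ones. Herpud1 differed most, 1.57-fold, and was the only one past 1.5-fold, as were 3.14% of all genes (1.35% higher and 1.79% lower). Duration and age differ together between these pools and cannot be told apart. The 4-week control pool was higher than the 2-week control pool in 5 of the 8 genes and lower in 3 (Hspa5 at -0.07, Dnajb9 at -0.16 and Xbp1 at -0.06). It was higher in 52.1% of all genes, 59.2% of protein-coding genes and 49.3% of the brighter ones. The median of the 8 was 0.06, against 0.01 over all genes. None of the 8 differed by 1.5-fold, against 4.09% of all genes (1.85% higher and 2.25% lower). The smoke and control comparisons over time each use their own arrays, but these are the arrays of the smoke differences above. The gap between durations is the smoke comparison minus the control one, so its count and the counts here are not independent.

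The smoke effect common to both durations was tested with limma over all 18084 genes, with terms for smoke and duration. This leaves 1 residual degree of freedom and treats the pools as the samples. The change of the smoke difference between durations is taken as a gene's own error. That error is combined with a prior variance estimated from all genes fitted. A gene with a small change, such as Atf4, therefore does not get a small standard error. The standard errors and p-values of this fit do not measure a gene's own disagreement between durations alone. None of the 8 genes passed at a Benjamini-Hochberg adjusted p of 0.05, while 1.47% of all genes did, 265 of 18084 (1.15% higher and 0.315% lower). That count over all genes depended on the scaling: it was 8 after median centring, 24 after cyclic loess and 11 after quantile normalization. At an unadjusted p under 0.05 the count was 1 of the 8, Atf4, against 11.6% of all genes. Atf4 was at -0.31 ± 0.101 (log2 smoke minus control with its standard error, limma adjusted p = 0.298, lower in 2 of 2 smoke pools). Sdf2l1 was at 0.23 ± 0.104 (limma adjusted p = 0.477, higher in 2 of 2). The other 6, whose differences had opposite signs, were between -0.10 (Hspa5) and 0.06 (Dnajb9), with limma adjusted p from 0.867 to 0.989. Under all alternatives run, the lowest adjusted p of any of the 8 was 0.0764, for Atf4, and the highest was 1.00.

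The rest of the pathway was read from 7 further lists, 94 of whose genes lay above the floor. Of these, 1 passed limma (1.47% of all genes did) and 19, or 20.2%, were lower with smoke at 2 weeks and higher at 4 weeks, against 19.3% of all genes and 11% of protein-coding genes. Among 7 sensors and processing factors none passed. Atf6, the ER-bound factor, was at -0.16 and -0.26 (smoke minus control at 2 and 4 weeks), Ern1, which encodes IRE1 alpha, at -0.09 and -0.20, Eif2ak3, which encodes PERK, at 0.03 and 0.02, and Creb3l1, a related membrane-bound factor, at 0.33 and 0.06. Of these 7, 0 were lower at 2 weeks and higher at 4 weeks. Ern1 and Eif2ak3 were picked with their values in view.

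Of 20 other ER chaperones, lectins and oxidoreductases none passed, and their medians were -0.03 at 2 weeks and 0.04 at 4 weeks. At 2 weeks 14 were lower and at 4 weeks 12 were higher, and 7 showed both. The genes at the ends of the range were Txndc5, a protein disulfide isomerase relative (0.18 and -0.08), Dnajc3, which encodes the BiP cochaperone p58IPK (-0.16 and -0.17), and Ppib, the ER cyclophilin B (0.02 and 0.28). The ER HSP90 gene Hsp90b1, also picked with its values in view, stood at -0.14 and 0.06. Among 12 genes of ER-associated degradation none passed. Syvn1, the ubiquitin ligase HRD1, was at 0.20 and 0.24, Ubxn4 at -0.19 and -0.01 and the mannosidase-like Edem3 at -0.12 and -0.21. Among 15 genes of translocation and vesicle transport none passed. Kdelr3, a receptor that returns ER proteins from the Golgi, was at 0.34 and -0.00, Sec11c, a subunit of the signal peptidase, at 0.05 and 0.32, Sec63, a translocon component, at -0.18 and -0.15 and Ssr1, of the translocon-associated complex, at -0.10 and -0.32.

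Targets of ATF4 and of the integrated stress response, the wider pathway that all eIF2 kinases feed, had the widest range of the 7 lists. Of 23 above the floor, 1 rose and none fell in limma. Slc7a11, the cystine transporter, had log2 signals of 7.60 and 7.86 in the smoke pools of 2 and 4 weeks against 6.45 and 6.46 in their control pools, and rose by 1.27 ± 0.113 (limma adjusted p = 0.0068). The call was lost under the other 3 scalings, with limma adjusted p of 0.0581 to 0.081 and effects of 1.25 to 1.27, and over 13 alternatives the adjusted p ran from 2.14e-06 to 0.50. It is also a target of NRF2, the antioxidant factor. Ppp1r15a, which encodes GADD34, the subunit that brings a phosphatase to eIF2, was at 6.44 and 6.55 in the smoke pools against 6.92 and 7.13 in the control pools, lower in 2 of 2 (-0.53 ± 0.102, limma adjusted p = 0.0816). Atf3, a stress-induced repressor that is also an immediate early gene, was 2.14 lower at 2 weeks (-2.14) and at -0.30 at 4 weeks, and its 2-week control pool stood 1.45 above the 4-week one. Among 15 immediate early genes 9 fell in limma and none rose, but 0 passed under the other 3 scalings, and their medians were -1.10 and -0.87. The part of these genes in the values of Atf3 and Ppp1r15a was not tested. Medians of the 23 genes were 0.04 and -0.08. List medians this close to 0 are not read for direction, since those of the sensors and degradation genes at 2 weeks and of others at 4 weeks turned sign with the scaling.

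None of 8 kinases and core factors of the integrated stress response passed, with medians of 0.09 and -0.01. Eif2b2, a subunit of the exchange factor eIF2B, was at 0.30 and 0.20, its partner Eif2b3 at 0.01 and -0.21 and Eif2b4 at -0.07 and 0.13. None of 9 genes of ER stress death passed. Bak1, a pore-forming BCL2 relative, was at 0.34 and 0.26, the death receptor gene Tnfrsf10b, a CHOP target, at -0.51 and -0.02 and the survival gene Bcl2 at -0.05 and -0.35. The largest differences of these 2 lists stayed under 1.5-fold.

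**Figure D4:**
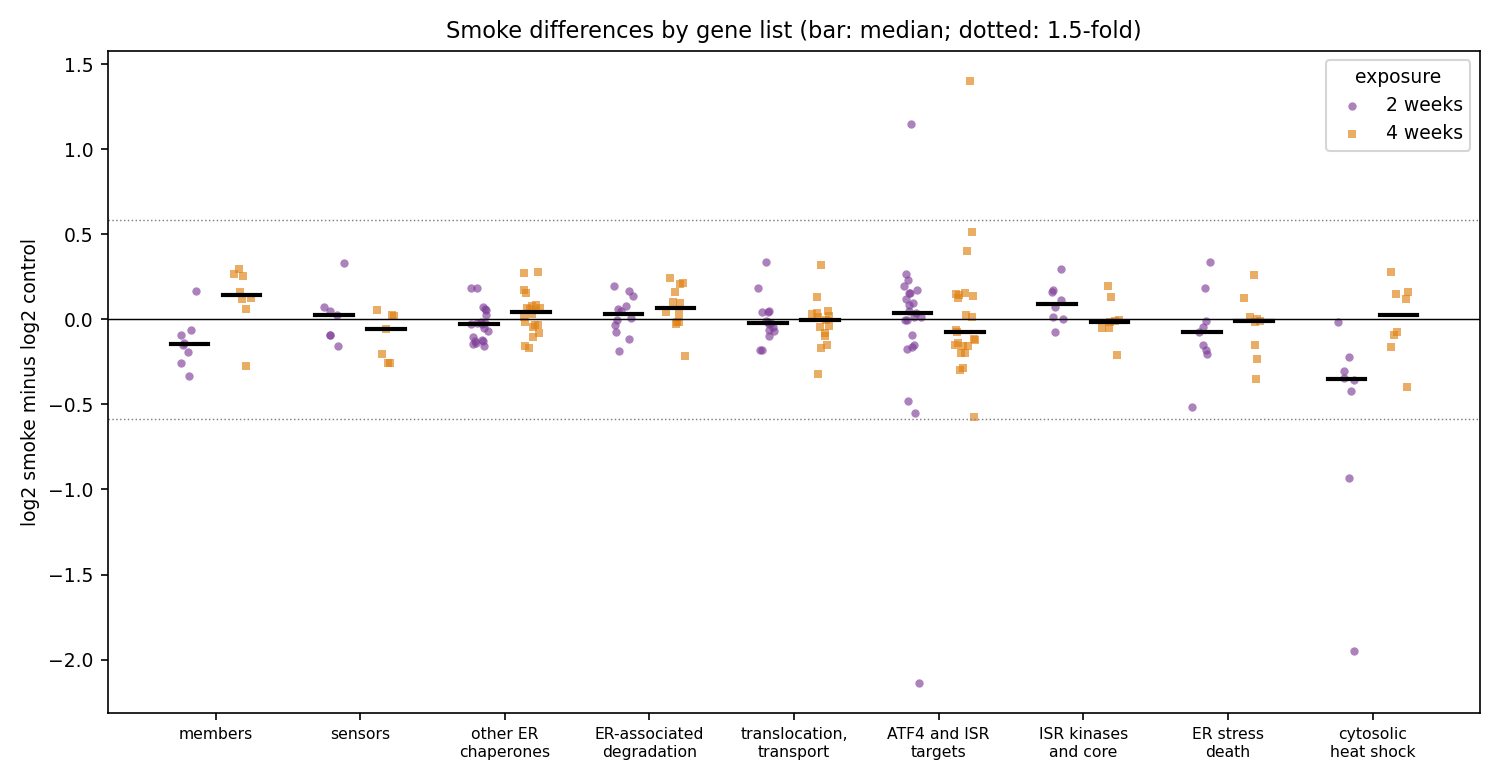
Log2 smoke minus log2 control (vertical axis) at 2 weeks (purple circles) and 4 weeks (orange squares) for each gene above the floor, by list; black bars are medians and dotted lines 1.5-fold (ISR, integrated stress response). The medians of the 8 genes are -0.15 and 0.14, those of the other pathway lists lie between -0.08 and 0.09, and those of cytosolic heat shock chaperones at -0.35 and 0.02.

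Several cell and stress markers were set beside these values. Cytosolic heat shock chaperones, which answer to HSF1 and not to the ER sensors, were lower with smoke in 8 of 8 genes at 2 weeks, under each scaling run, with a median of -0.35, and higher in 4 of 8 at 4 weeks, with a median of 0.02. Hsp90aa1 was at -0.36 and 0.15, Hspa8 at -0.22 and 0.16, Hsph1 at -0.93 and 0.28 and the inducible Hspa1a at -1.95 and 0.12. The other 4 were lower at both durations: Hspb1 at -0.30 and -0.17, Hspb8 at -0.34 and -0.40, Dnajb1 at -0.42 and -0.07 and Bag3 at -0.02 and -0.09. The summed linear signal of the 8 was 474960 with smoke against 564212 with clean air at 2 weeks and 601692 with smoke against 539442 with clean air at 4 weeks. Hspa8 alone made up 84.2% to 86.1% of it; the other 7 summed to 65792 with smoke against 87982 with clean air at 2 weeks and to 94156 with smoke against 85092 with clean air at 4 weeks. The part of the heat shock genes in the result was not tested. Alveolar macrophage markers had summed signals of 39060 and 56253 in the smoke pools against 16944 and 18792 in the control pools, higher with smoke at both durations. The brightest of them, Atp6v0d2, made up 24.3% to 37.5% of these sums. Of the 10 markers, 9 were higher with smoke at 2 weeks and 10 at 4 weeks, by unlike amounts. Siglecf was at -0.13 and 0.13, and Fabp4 at 0.57 and 0.03 (smoke minus control at 2 and 4 weeks). Of 10, 6 rose in limma (1 or 2 under the other scalings), with Atp6v0d2, a proton pump subunit, at 1.96 ± 0.113 (limma adjusted p = 0.00184, and 0.062 after median centring). Endothelial markers were lower with smoke in 9 of 9 genes at 2 weeks and in 8 of 9 at 4 weeks, with sums of 282908 and 251761 in smoke against 321479 and 311143 in control lungs and 1 of 9 past the threshold in limma (0 under the other scalings).

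Markers of secretory cell types were set beside the members as well. Alveolar type 2 markers summed to 1564360 and 1680610 in the smoke pools against 1486560 and 1542920 in the control pools, with Sftpc, the surfactant protein C gene, between 18.85 and 18.97 in all 4. Sftpd, the surfactant protein D gene of the same list, rose by 1.03 ± 0.144 (limma adjusted p = 0.0303), 1.70-fold at 2 weeks and 2.45-fold at 4 weeks; the call was lost under the other 3 scalings, with limma adjusted p of 0.104 to 0.178. Club and goblet cell markers summed to 1296110 and 1337820 with smoke against 1241370 and 1366990 with clean air, and their secretoglobin gene Scgb1a1 lay between 19.63 and 19.69 in all 4. That gene made up 61.9% to 65.4% of the sum, and 4 of the 10 were over 1.5-fold higher with smoke at 2 weeks: the antimicrobial lectin gene Reg3g (4.53-fold), the secretoglobin gene Scgb3a1 (3.90-fold), Bpifa1 (3.10-fold) and the mucin gene Muc5b (1.51-fold). At 4 weeks Scgb3a1 was 1.53-fold higher and the other 3 were under 1.5-fold apart in either direction. In each of these 4 genes the 2-week control pool was the lowest of the pools. It lay below the 4-week control pool by 1.96 (Bpifa1), 1.55 (Reg3g), 1.30 (Scgb3a1) and 0.57 (Muc5b) on the log2 scale. None of the 10 passed limma. The defining markers of lung epithelium were thus present in every pool. Of 7 plasma cell markers above the floor, 5 were higher with smoke at 2 weeks and 4, Xbp1 included, at 4 weeks. Their sum rests mostly on Xbp1, itself a member. Without it the other 6 summed to 1409.8 with smoke against 1320.5 with clean air at 2 weeks. At 4 weeks they summed to 1261.0 with smoke against 1356.1 with clean air. This sum had the opposite order to Xbp1 at both durations, but not every gene in it did. Of the 7, 2 were lower with smoke at 2 weeks and higher at 4 weeks, Xbp1 and Jchain. The log2 signal of Jchain was 6.06 with smoke against 7.06 with clean air at 2 weeks, and 6.26 against 5.87 at 4 weeks. The sum gives bright genes more weight: the mean log2 signal was 9.15 for Sdc1 and 6.31 for Jchain. Heart muscle markers, 7 above the floor, summed to 10776 and 9796 in the smoke pools against 13149 and 17437 in the control pools. Tnnt2 alone made up 52.7% to 54.7% of these sums. With smoke, 6 of the 7 were lower at 2 weeks and 7 at 4 weeks. Nppa was at 1.04 at 2 weeks and -1.62 at 4 weeks (smoke minus control), and its control pools lay 2.24 apart. The part of these cell types in the 8 genes was not tested.

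Genes most like Hspa5 over the 4 pools were found by the Euclidean distance of centred log2 signals among 12583 protein-coding genes. The nearest 5 were Mcat, a mitochondrial acyltransferase (distance 0.03), Nqo1, the quinone reductase (0.03), Dmrtc1a (0.04), Tmem86b (0.04) and Ube2a, a ubiquitin-conjugating enzyme (0.04). None is in the lists above. Of the other members, Ddit3 ranked 368th of 12582, Hyou1 555th, Xbp1 651st, Dnajb9 836th, Atf4 5013th, Sdf2l1 9055th and Herpud1 10735th, with distances of 0.14 to 0.45 against a median gene at 0.30. With only 4 pools, many genes fall close to any one profile.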

How the data were processed

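Per the submitters' processing notes, the authors summarised and normalised the arrays with RMA in Affymetrix Expression Console 1.4.1, and what they deposited are linear intensities. RMA gives the arrays like distributions, which would hide a change shared by every gene of a pool. A log2 table had been foreseen, so log2 of the deposited intensities was taken and the tests kept. Per the labels' protocols, RNA was labelled with the GeneChip WT PLUS kit; no genome build is stated.

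Of 65956 features, 30604 had 1 gene symbol in the platform annotation, 2146 several and 33206 were not listed. Symbols were updated by Entrez ID with RefSeq (GRCm38.p6), which matched 22818 features. For a gene with several features the one with the highest mean was used, and 18084 genes over a floor at the 40th percentile of mean log2 signal were kept. The smoke effect was fitted with limma 3.58.1 (R 4.3.3), and p-values were adjusted by Benjamini-Hochberg over all genes kept. The fit was also run on simulated arrays with known changes, independent errors and no array or duration effect. That run does not bear on how the calls depended on the scaling. Genes were named by a rule: all members, the extremes of each pathway list at each duration, every pathway list gene passing limma, the 5 genes nearest Hspa5 and 1 marker a cell type; a few markers were added after their values were seen. Members, lists and tests were chosen with earlier results of these data known. Protein sequences were not used here.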

Additional observations from a re-analysis of the deposited data

Results flagged for a closer look

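The smoke difference had opposite signs at the 2 durations, lower at 2 weeks and higher at 4 weeks, in 6 of the 8 genes and in their median. The difference at 4 weeks minus that at 2 weeks was 0.45 for Xbp1, 0.41 for Dnajb9, 0.32 for Hspa5, 0.28 for Ddit3, 0.26 for Herpud1 and 0.19 for Hyou1 on the log2 scale, and 0.29 between the medians of the 8 genes. Each rests on 1 pool a group, so the change with duration was not tested.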

How the results depend on the processing

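The 8 genes' median kept its sign in each alternative, from -0.18 to -0.10 at 2 weeks and from 0.10 to 0.21 at 4 weeks, and 0 of the 8 passed limma in any. After quantile normalization 5 in place of 6 genes were lower at 2 and higher at 4 weeks (Hspa5 at -0.00767 at 4 weeks). The limma count over all genes, 265, was 8 after median centring, 24 after cyclic loess, 11 after quantile normalization, 0 without the duration term (1163 genes at an unadjusted p under 0.05), 884 with protein-coding genes alone and 0 to 34 with 1 pool left out and no duration term (0 without either smoke pool, 6 without the 2-week and 34 without the 4-week control pool). With 1 pool left out and no duration term, the limma effect ran from -0.23 to 0.03 for Hspa5, -0.18 to 0.16 for Ddit3, -0.10 to 0.15 for Hyou1, -0.29 to 0.36 for Herpud1, -0.06 to 0.19 for Dnajb9 and -0.17 to 0.23 for Xbp1. The sign turned without the 2-week smoke pool for Hspa5 (0.028) and Ddit3 (0.16), without the 2-week control pool for Hyou1 (-0.0013) and Herpud1 (-0.16), without the 4-week smoke pool for Dnajb9 (-0.063), Hyou1 (-0.095), Herpud1 (-0.29) and Xbp1 (-0.17), and without the 4-week control pool for Dnajb9 (-0.016) and Ddit3 (0.020). It also turned for Ddit3 after cyclic loess (0.011). Slc7a11 passed in 5 of 13 alternatives, Atp6v0d2 in 9 of 14 and Sftpd, added after seeing the data, in 6 of 14, always with the same sign. With natural logarithms the genes past 1.5-fold numbered 210 (549 on the log2 scale) at 2 weeks, 268 (730) at 4 weeks, 233 (740) between the control pools, 119 (568) between the smoke pools, with 0 members in place of 1, and 287 (933) for the change with duration. With no floor the last 2 counts were 876 and 1794, and with a 60th percentile floor that for the change was 488. Averaging the features of a gene put Ddit3 at -0.021 between the control pools. The counts with natural logarithms fell because each difference was 0.69 times as large against the same cut-off. Those with another floor changed because genes of low signal were added or removed. The cause of the other shifts was not tested. The comparison of the smoke pools was added after seeing the data. The duration term sets each smoke pool against the control pool of its own duration, and the count without it is the unpaired one; the labels give no replicate numbers to pair by. Detection calls were not used here, so how far each gene stood above background is not known.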
